A study of Homo sapiens with 6 samples.

Results

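The 42 genes described here encode the damage kinases and the proteins of homologous recombination, the Fanconi pathway and mismatch and excision repair. They were picked by gene symbol from the 23152 genes counted in RNA from T24 cells. Mismatch repair was represented by only 2 of them, so most of the set belongs to strand break and crosslink repair. T24 cells are a long-established line grown from a human bladder tumor. RNA of 3 T24 samples labelled vector was compared with RNA of 3 T24 samples labelled oeRNF112, in which RNF112, a RING finger ubiquitin ligase, was overexpressed. Cells of both groups carried the same culture and lipid transfection protocol, no further agent or allele is labelled, and the labels do not say whether the replicates were separate cultures. The protocol given with the samples speaks of siRNA, whereas the labels name a vector and RNF112 overexpression, and the time of harvest is not given in the sources used here.

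A broken chromosome can be rejoined without loss when the damage kinases stop the cell cycle, nucleases trim the broken ends and the BRCA proteins load a recombinase that copies the intact sister chromatid. The Fanconi core complex attaches ubiquitin to the FANCD2 and FANCI proteins at DNA crosslinks and passes the lesion on to the same machinery. Mismatch repair corrects copying errors, base excision repair removes damaged or foreign bases such as uracil, and nucleotide excision repair cuts out bulky adducts. Many recombination and Fanconi genes are transcribed mainly in S phase and G2, when a sister chromatid is present.

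The samples held between 40029547 and 41259569 counted reads each. A count of 0 at this depth allows up to 3 reads, or a CPM (read count scaled to the library size) of up to 0.0749, and this limit covers counting error only. RNF112 had 27, 19 and 24 reads in the vector samples and 29753, 36963 and 31712 reads in the oeRNF112 samples, some of which may come from the introduced construct. The epithelial keratins KRT18, KRT8 and KRT7 were abundant. Their mean RPKM (read count scaled to gene length and library size) was 744, 604 and 521 in vector and 558, 514 and 399 in oeRNF112. KRT19 had 118 RPKM in vector, FOXA1 8.58 and PPARG 7.51. Lower still in vector were EPCAM with 1.37, GATA3 with 1.02 and UPK1A with 0.228 RPKM. TP63 had at most 2 reads in any sample, and KRT5 and UPK1B were not among the genes counted. Of the 9 urothelial markers tested, 4 passed the test described below, 1 higher and 3 lower. Of all genes tested, 9.97% passed as higher and 8.14% as lower. The markers of differentiated urothelium UPK2, UPK3A, KRT13 and KRT20 had at most 7 reads in any sample. The leukocyte list of 8 markers summed to a CPM of 32.4 to 34.8 in vector and 58.2 to 71.1 in oeRNF112, most of it from CD68 with 870 to 2645 reads. The other 4 leukocyte markers tested had fitted values below 0, among them LAPTM5 at 54.3% of vector (adjusted p = 0.0308, edgeR). The leukocyte marker PTPRC had 24 to 54 reads, CD79A 17 to 51, CD14 53 to 91, and CD3E and TYROBP at most 4. The fibroblast and endothelial list summed to a CPM of 9.48 to 12.4 in vector and 12.8 to 13.5 in oeRNF112, and the part of these cell markers in the results was not tested.

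Among the repair transcripts the lowest fold change was that of UNG, the uracil-DNA glycosylase that starts base excision repair, which fell to 57.7% of its vector level. All 42 genes passed the filter on low counts, the least abundant of them with at least 309 reads in every sample. Using edgeR's quasi-likelihood test with adjustment over all 14467 genes tested, 3 of the 42 had an adjusted p under 0.05. These were UNG, PARP1 and FANCC, and each of them was lower in oeRNF112. This is 7.14% of the repair genes, while 18.1% of all genes tested passed, 8.14% as lower and 9.97% as higher. The median log2 fold change was -0.0018 over the repair genes and 0.0027 over all genes tested, and 21 repair genes had a fitted value above 0 and 21 below. Vector and oeRNF112 values were fully separate for 8 of the 42 genes (19.0%), against 36.8% of all genes tested. Scaling by library totals instead of TMM gave 2020 higher and 659 lower genes in place of 1442 and 1178, and among the repair genes 2 higher (BLM and EXO1) and 1 lower (UNG). The 95% intervals of 35 genes lay wholly within 0.5 of 0 on the log2 scale, which is a range of 70.7% to 141% of the vector level. The intervals of UNG, FANCC, XRCC1, BRCA2, BRIP1, FANCB and FANCM reached beyond it. The count of 3 genes fell to UNG alone without vector replicate 1, vector replicate 2, oeRNF112 replicate 1 or oeRNF112 replicate 3. UNG and FANCC passed without vector replicate 3, and UNG and XRCC1 without oeRNF112 replicate 2.

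**Figure D1:**
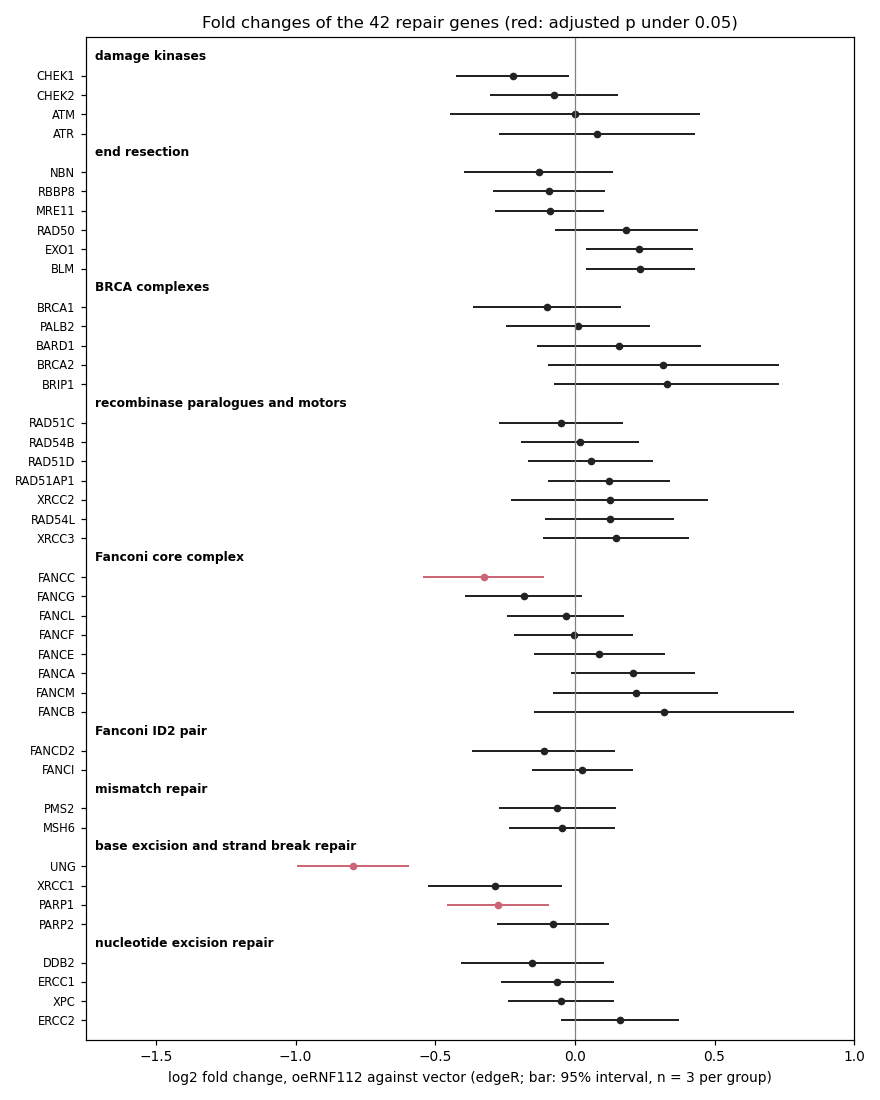
Log2 fold change of each of the 42 repair genes in oeRNF112 against vector on the horizontal axis, grouped by role, with points for edgeR's estimate and bars for its 95% interval (3 samples per group). UNG lies at -0.79, apart from the remaining genes, which lie between -0.33 and 0.33.

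UNG was measured at 78.5, 70.4 and 71.5 CPM, normalized by TMM, in the vector samples. In the oeRNF112 samples it stood at 43.9, 42.8 and 40.3 CPM. The lowest vector value was thus far above the highest oeRNF112 value, and replicates of a group differed by at most 1.12-fold. On the log2 scale edgeR's estimate was -0.79 with a standard error of 0.0887 (adjusted p = 0.000548), with a 95% interval of 50.3% to 66.1% of the vector level. UNG was lower with an adjusted p under 0.05 in all 15 alternative analyses, with log2 fold changes between -0.83 and -0.67 and adjusted p between 2.44e-12 and 0.0102. UNG makes a nuclear and a mitochondrial form of the enzyme from alternative starts, and the counts are per gene, so the forms are not separated here. The pseudogenes UNGP1 and UNGP3 exist in the GENCODE annotation, and reads could have been split between them and UNG.

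UNG lies on the plus strand of chromosome 12, from 109097597 to 109110992 (GRCh38.p14, RefSeq). RefSeq gives it a pair of starts with a promoter window each, and these windows are shown because UNG is the gene that moved. Each run holds 250 bases before the start and 30 from it, at chr12:109097347-109097626 and chr12:109097922-109098201. Capitals mark, on either strand, the words CACGTG (E-box, the motif that MYC and MAX bind), CCAAT (bound by NF-Y), TTTGAA (CHR, a cell cycle element) and the E2F words TTTCCCGC, TTTCGCGC, TTTGCCGC and TTTGGCGC.

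UNG, upstream start: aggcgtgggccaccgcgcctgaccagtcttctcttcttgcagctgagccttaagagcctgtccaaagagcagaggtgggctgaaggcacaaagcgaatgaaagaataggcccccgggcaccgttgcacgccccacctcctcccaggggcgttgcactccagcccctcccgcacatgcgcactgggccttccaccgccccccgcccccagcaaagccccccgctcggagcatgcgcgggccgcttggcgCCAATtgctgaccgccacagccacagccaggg
UNG, downstream start: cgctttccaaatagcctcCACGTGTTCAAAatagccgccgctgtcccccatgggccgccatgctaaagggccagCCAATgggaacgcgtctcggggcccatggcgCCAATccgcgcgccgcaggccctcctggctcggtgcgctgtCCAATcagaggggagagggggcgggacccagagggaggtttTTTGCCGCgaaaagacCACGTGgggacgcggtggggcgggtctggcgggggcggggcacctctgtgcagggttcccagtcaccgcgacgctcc

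The downstream window held an E-box at 2 places, from -232 to -227 and from -47 to -42 (counted with the start base as 0), the second of them close behind an E2F word from -63 to -56. It also held CCAAT at 3 places and a CHR word, on the minus strand, directly beside the outer E-box. The upstream window held only a CCAAT that spans the start. Among the 39 repair genes with a window in the RefSeq table, 4 had an E-box (BRCA2, FANCC, RAD50 and UNG), or 10.3%, against 8.77% of the 27305 genes of the table. An E2F word was in the windows of 9 repair genes (23.1%, against 3.99% of all), CCAAT in 21 (53.8%, against 39.7%) and the CHR word in 7 (17.9%, against 18.2%). Some genes have several windows, and the repair genes had 57 of the 35116 in the table. By window, an E-box was in 7.02% of the 57 against 7.26% of all, and an E2F word in 17.5% against 3.31%. CCAAT was in 47.4% against 34.6%, and the CHR word in 12.3% against 15.2%. Genes with an E2F word included UNG and FANCC, which fell, and EXO1, FANCA, FANCD2, MSH6, PMS2, XPC and XRCC2, which did not pass the test. Such matches describe letters in these windows and are not evidence of binding.

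The other members of base excision and single-strand break repair also had fitted values below 0, with a median log2 fold change of -0.28 for the 4 genes, or -0.19 with library totals. PARP1, which senses strand breaks and builds poly(ADP-ribose) chains, had 302, 305 and 307 CPM in vector. It had 259, 237 and 259.9 CPM in oeRNF112, so that the groups did not overlap. This was 82.7% of vector, or -0.27 on the log2 scale with a standard error of 0.0803 (adjusted p = 0.0413 in edgeR). The call was lost when any sample was left out, and the adjusted p of these 6 fits lay between 0.0570 (vector replicate 2 left out) and 0.149 (vector replicate 1 left out). Over all 15 alternatives its adjusted p went from 0.0147 to 0.240. GENCODE holds the pseudogenes PARP1P1 and PARP1P2, and reads could have been split between them and PARP1. XRCC1, the scaffold that PARP activity recruits, had 47.0, 43.1 and 48.3 CPM in vector and 34.2, 42.7 and 36.5 CPM in oeRNF112. The groups stood apart by less than 1 CPM, and with a log2 fold change of -0.29 the adjusted p of 0.0887 missed the threshold, which XRCC1 passed without oeRNF112 replicate 2 (adjusted p = 0.0468, edgeR). PARP2, the smaller relative of PARP1, had 46.2, 48.8 and 51.1 CPM in vector against 48.8, 45.3 and 44.4 CPM in oeRNF112. These values overlapped, and its log2 fold change of -0.08 turned to 0.016 when library totals replaced the TMM factors.

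FANCC, a subunit of the Fanconi core complex, was the only one of 8 core genes to pass. It had 31.0, 32.5 and 28.0 CPM in vector and 25.2, 23.96 and 23.8 CPM in oeRNF112. Every oeRNF112 value lay below every vector value. The fitted difference was -0.33 on the log2 scale with a standard error of 0.0957 (adjusted p = 0.0411 in edgeR), with an interval of 68.8% to 92.4% of vector. It kept an adjusted p under 0.05 without vector replicate 3 and lost it without vector replicate 1 (0.161), vector replicate 2 (0.0864), oeRNF112 replicate 1 (0.104), oeRNF112 replicate 2 (0.107) or oeRNF112 replicate 3 (0.125). Over all 15 alternatives the adjusted p lay between 0.0223 and 0.213.

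FANCC and PARP1 are on the minus strands of chromosomes 9 and 1, from 95099054 to 95317709 and from 226360691 to 226408093 (GRCh38.p14, RefSeq). Their windows are shown beside those of UNG because they are the only other repair genes that passed, at chr9:95317680-95317959 for the outermost FANCC start and chr1:226408064-226408343 for PARP1, with the same words in capitals.

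FANCC: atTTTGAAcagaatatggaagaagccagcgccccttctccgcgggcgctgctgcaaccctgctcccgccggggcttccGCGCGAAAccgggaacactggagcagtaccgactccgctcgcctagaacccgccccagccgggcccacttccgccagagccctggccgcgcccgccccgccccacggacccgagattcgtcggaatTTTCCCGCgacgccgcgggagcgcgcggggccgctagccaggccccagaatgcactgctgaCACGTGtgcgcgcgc
PARP1: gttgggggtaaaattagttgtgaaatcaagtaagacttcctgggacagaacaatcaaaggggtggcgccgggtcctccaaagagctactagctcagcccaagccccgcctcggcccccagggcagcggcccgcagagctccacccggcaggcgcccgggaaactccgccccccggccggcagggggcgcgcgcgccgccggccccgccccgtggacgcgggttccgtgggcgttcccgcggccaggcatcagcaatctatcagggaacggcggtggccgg

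The FANCC window held an E-box from 15 to 20, E2F words from -172 to -165 and from -46 to -39, and a CHR word, while the PARP1 window held none of the words searched. RefSeq lists a second FANCC start, whose window held none either.

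**Figure D2:**
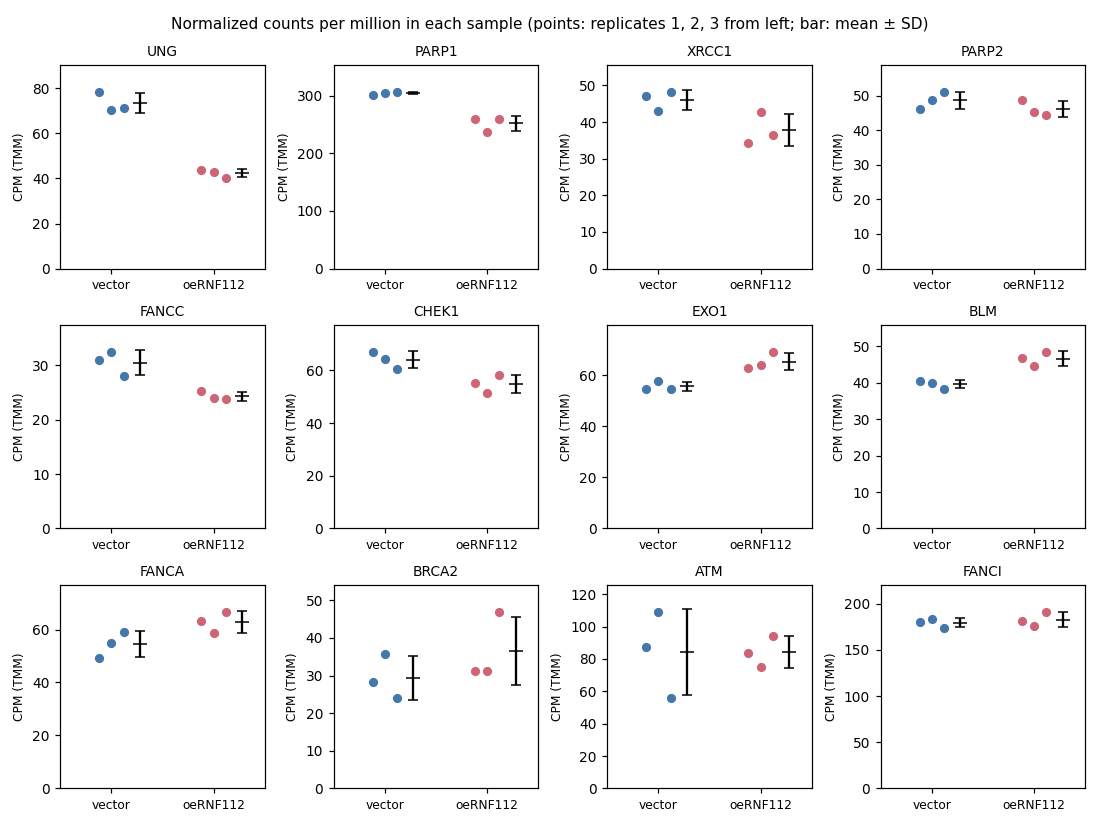
TMM-normalized CPM of 12 repair genes in each vector (blue) and oeRNF112 (red) sample, with the mean and SD of the 3 samples beside the points and vertical axes that start at 0. UNG falls from between 70.4 and 78.5 to between 40.3 and 43.9 CPM, whereas ATM and BRCA2 vary as much within a group as between the groups.

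Within the rest of the Fanconi pathway, no gene passed the test and the fitted values went both ways. FANCG, which by RPKM was the most abundant core gene, had 97.8, 91.8 and 106 CPM in vector and 83.6, 93.6 and 83.2 CPM in oeRNF112, with a log2 fold change of -0.18 (adjusted p = 0.196 from edgeR's test). FANCA, which with FANCG forms a subcomplex, had 49.3, 54.8 and 59.1 CPM in vector and 63.1, 58.7 and 66.7 CPM in oeRNF112, where only the lowest oeRNF112 value reached into the vector range (log2 fold change 0.21, adjusted p = 0.17). FANCB, FANCE, FANCF and FANCL lay between -0.03 and 0.32. FANCE, an adaptor to FANCD2, had between 11.3 and 11.4 CPM in vector and between 11.6 and 12.7 CPM in oeRNF112, so that the groups did not overlap at a log2 fold change of 0.09 (adjusted p = 0.587). FANCM, the translocase that anchors the core complex to chromatin, had a log2 fold change of 0.22 with an interval from -0.07 to 0.51. For FANCI, the partner of FANCD2, the vector samples read 180.2, 183 and 174 CPM. The oeRNF112 samples read 181, 175 and 191 CPM, and the interval of the log2 fold change ran from -0.15 to 0.20. FANCD2 had 65.1, 73.8 and 64.9 CPM in vector and 68.7, 53.1 and 66.7 CPM in oeRNF112, with oeRNF112 replicate 2 below the rest. Its log2 fold change was -0.11, and 0.0076 without that sample.

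Of the 18 genes of end resection, the BRCA complexes and the recombinase paralogues and motors, none passed the test in either direction by edgeR or by DESeq2, and 2 had an unadjusted p under 0.05 in edgeR. Fitted values were above 0 for 13 of them, and their median log2 fold change was 0.12. EXO1, the nuclease that lengthens resected ends, had 54.6, 57.8 and 54.7 CPM in vector and 63.0, 63.9 and 69.2 CPM in oeRNF112. BLM, the helicase that works with it, had 40.5, 40.1 and 38.4 CPM in vector and 46.8, 44.6 and 48.6 CPM in oeRNF112. For both genes every oeRNF112 value exceeded every vector value, and both log2 fold changes were 0.23, with adjusted p of 0.0871 and 0.0857 from edgeR's test. Both passed in 4 of the 15 alternatives, namely with library totals and in 3 limma fits on RPKM. The remaining resection genes overlapped between the groups. NBN, the subunit of the MRE11 and RAD50 complex that binds ATM, had 101, 107 and 79.9 CPM in vector and 82.3, 86.0 and 95.2 CPM in oeRNF112. Its partners MRE11 and RAD50 had log2 fold changes of -0.09 and 0.18, and RBBP8, the cofactor that starts resection, of -0.09. Most exonic bases of RAD50 (7784 of 9771) are shared on the same strand with the protein-coding gene AC116366.3 in GENCODE, and reads could have been divided between them.

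BRCA1, which directs ends into recombination, had 87.1, 89.1 and 72.1 CPM in vector and 73.1, 70.2 and 88.1 CPM in oeRNF112. Its log2 fold change was -0.10 with an interval from -0.36 to 0.16. BRCA2, which loads the recombinase, had 28.2, 35.7 and 23.97 CPM in vector and 31.3, 31.3 and 47.0 CPM in oeRNF112. The value of oeRNF112 replicate 3 stood apart, and the log2 fold change of 0.32 had an interval from -0.09 to 0.73. BRIP1, the helicase partner of BRCA1, was similar at 0.33 (from -0.07 to 0.73), and neither gene passed in any alternative, with the smallest adjusted p at 0.0538 for BRCA2 and 0.0510 for BRIP1. BARD1, the ubiquitin ligase partner of BRCA1, had a log2 fold change of 0.16. PALB2, which bridges BRCA1 and BRCA2, stood at 0.01. Among the paralogues and motors, RAD51AP1 was the most abundant per length, with 39.4, 42.7 and 37.2 CPM in vector and 39.9, 44.5 and 45.6 CPM in oeRNF112. The 7 genes of this group (RAD51C, RAD51D, XRCC2, XRCC3, RAD51AP1, RAD54L and RAD54B) had log2 fold changes between -0.05 and 0.15, and all 7 intervals lay within 0.5 of 0. The group's median by sample, relative to the mean of the vector samples, lay between -0.08 and -0.02 for vector, and every oeRNF112 sample was higher, from 0.04 to 0.13. Its median log2 fold change of 0.12 depended on the samples and the scaling. It was 0.058 without vector replicate 3, 0.048 without oeRNF112 replicate 3 and 0.22 with library totals. RAD51C, with the lowest log2 fold change of the group, was at 0.043 with library totals. RAD54B shares 3139 of 5313 exonic bases with the protein-coding gene FSBP on the same strand in GENCODE, and reads could have been divided between them. XRCC3 shares 5756 of 7507 exonic bases with KLC1 on the opposite strand in GENCODE, and whether the counting used strand is not given in the sources used here.

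The damage kinases did not pass either. CHEK1, the kinase that restrains mitosis after replication stress, had 67.0, 64.4 and 60.5 CPM in vector and 55.1, 51.4 and 58.0 CPM in oeRNF112. The groups did not overlap, and the log2 fold change was -0.22 (adjusted p = 0.113 from edgeR's test), or 85.7% of vector. CHEK2, which has several pseudogenes, had a log2 fold change of -0.07. ATM, the kinase that responds to double-strand breaks, had 87.3, 109 and 56.2 CPM in vector and 83.4, 75.1 and 94.4 CPM in oeRNF112. The group means were nearly the same (84.2 and 84.3 CPM), while the vector samples alone spanned a 1.94-fold range. ATR, its relative at stalled forks, had a log2 fold change of 0.08 with vector samples spanning a 1.55-fold range. In mismatch repair, MSH6, which recognizes mismatched bases, had 164, 153 and 146 CPM in vector and 156, 146 and 148 CPM in oeRNF112 (log2 fold change -0.05, interval -0.23 to 0.14). PMS2, the endonuclease subunit, stood at -0.06, and reads could have been split between it and the pseudogenes named for it in GENCODE.

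The 4 nucleotide excision repair genes lay between -0.15 and 0.16 and none passed. ERCC1, the partner of the nuclease that cuts beside the lesion, had 126, 117 and 137 CPM in vector and 122, 126 and 116 CPM in oeRNF112. ERCC2, a helicase of the transcription factor TFIIH, had the highest value of the group at 0.16. XPC and DDB2 recognize bulky lesions and ultraviolet damage, and both are known targets of p53. DDB2 had 33.9, 30.9 and 36.6 CPM in vector and 30.9, 33.7 and 26.6 CPM in oeRNF112, with a log2 fold change of -0.15 (adjusted p = 0.378), and XPC had -0.05 (adjusted p = 0.718). In a list of 22 other p53 targets, 7 rose and 3 fell (edgeR, adjusted p under 0.05), where 9.97% of all genes tested passed as higher and 8.14% as lower. The counts were 5 and 2 without vector replicate 1, and 4 and 1 with the replicate number as a block. CDKN1A, the inhibitor of cyclin-dependent kinases, rose to 181% of vector (adjusted p = 0.000463), GDF15 to 232% (adjusted p = 0.000463) and PLK3 to 158% (adjusted p = 0.00269). The difference between these genes and the pair of repair genes was not tested.

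Vector replicates 2 and 3 differed most in the long, AT-rich genes of the set. Of the 21 repair genes with the lower GC content (36.1% to 42.4% in the longest GENCODE transcript), 18 were lower in vector replicate 3 than in vector replicate 2. The same held for 8 of the 21 genes with the higher GC content. ATM in vector replicate 3 was 0.515 of its value in vector replicate 2, FANCB 0.558, BRIP1 0.591, ATR 0.645 and BRCA2 0.671, whereas UNG was at 1.02 and PARP1 at 1.01. Across the 42 genes, the log2 difference between these libraries had a Spearman's rho of 0.71 with GC content and of -0.71 with gene length. Across the 13217 genes tested that have a GC value, the same figures were 0.42 and -0.59. These are descriptions across genes of the same pair of libraries, and GC content and length were not separated. The oeRNF112 samples also differed in these long genes. ATM had 75.1 and 94.4 CPM in oeRNF112 replicates 2 and 3, FANCB 11.6 and 17.0, and BRIP1 53.1 and 62.6. ATR had 48.9 and 63.1 CPM there and BRCA2 31.3 and 47.0, while UNG had 42.8 and 40.3 and PARP1 237 and 260. How this oeRNF112 pair varied with GC content and length was not computed. The median log2 fold change between the groups was 0.08 in the lower GC group, with 13 of 21 genes above 0, and -0.06 in the higher GC group, with 8 of 21 above 0. For the 42 genes, the log2 fold change between the groups had a Spearman's rho of -0.33 with GC content and of 0.36 with gene length. Over the 13217 genes these figures were -0.11 and 0.21. The part of GC content and length in the group differences was not tested.

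**Figure D3:**
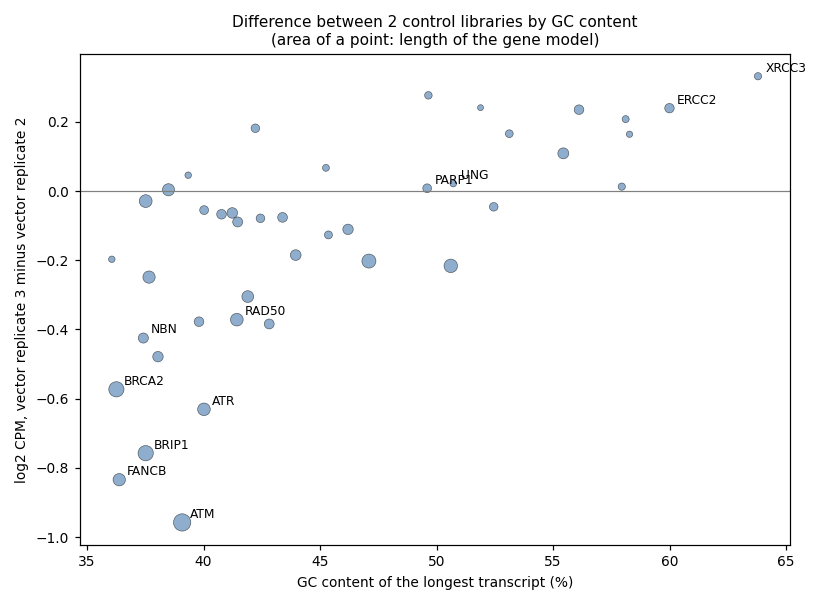
Difference in log2 CPM between vector replicates 3 and 2 (vertical axis) against the GC content of the longest transcript in percent (horizontal axis) for the 42 repair genes, with the area of a point proportional to gene length. The long genes ATM, FANCB, BRIP1, ATR and BRCA2 lie lowest at the left, and UNG and PARP1 lie near 0.

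By RPKM, the repair genes spanned a wide range of levels in vector. PARP1 led with 74.2 ± 1.53 RPKM (SD, n = 3), followed by FANCG with 37.3 ± 2.17, FANCI with 35.4 ± 1.51, MSH6 with 31.4 ± 1.85 and UNG with 30.8 ± 1.60. FANCG did not stand apart from FANCI, nor MSH6 from UNG, since their vector samples overlapped. By mean RPKM in vector, UNG had rank 5 of the set, with its order against MSH6 unresolved. In oeRNF112 UNG stood at 19.0 ± 0.700 RPKM, beside XRCC1 at 19.0 ± 1.94. The lowest levels were those of BRCA2 (2.38 ± 0.525), FANCM (1.83 ± 0.188) and FANCB (1.41 ± 0.415). Of the 41 neighbouring pairs in this order, 36 overlapped and 5 stood apart.

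Other genes of the same pathways were read from lists of 144 further repair genes, of which 142 were tested. There, 15 fell and 3 rose, which is 12.7% of these genes and below the 18.1% of all genes tested that passed (8.14% as lower and 9.97% as higher). In the list as a whole, the log2 fold changes had a median of -0.025. Both subunits of the Ku heterodimer, which binds broken ends for end joining, were lower (XRCC6 at 72.3% and XRCC5 at 76.5% of vector, adjusted p of 0.00860 and 0.0114 from edgeR's test). LIG4, the ligase of the same pathway, was higher at 163% (adjusted p = 0.016). In base excision repair 2 of 20 genes fell, APEX1, the endonuclease that acts directly after UNG, to 75.7% and TDP1, which frees trapped topoisomerase, to 72.7%. The median log2 fold change of these 20 genes was -0.09, with 6 fitted values above 0 and 14 below. In the mismatch repair list 4 of 14 fell, among them the replicative ligase LIG1 (73.6%), POLD1 (75.3%) and MSH3 (76.0%), and also POLD2. In the homologous recombination list of 37 genes tested, RPA2 and RPA1, which coat single-stranded DNA, fell to 75.0% and 79.8%, BABAM2 fell as well, and POLQ, the polymerase of an alternative end joining route, rose to 148%. Among 21 checkpoint and chromatin adaptors tested, TIMELESS fell to 69.3% and H2AX to 73.3%, SHLD1 fell too, and RNF168 rose to 135%. DDB1, the partner of DDB2, was the only one of 21 nucleotide excision repair genes to fall, to 78.0%. None of 18 further Fanconi genes passed in edgeR's test, 3 of them had an unadjusted p under 0.05, and DESeq2 called 1 of them lower. The number of genes that passed in these lists was 3 without vector replicate 1, 4 without oeRNF112 replicate 1 and 6 without oeRNF112 replicate 3, and 26 without vector replicate 2.

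Lists of S phase and of mitotic genes were read from the same samples. In a list of 24 S phase genes, 10 fell, 2 rose and the rest did not pass, where 8.14% of all genes tested passed as lower and 9.97% as higher. With library totals 5 fell and 3 rose. The list's median was -0.22 on the log2 scale, and TYMS, MCM5 and MCM6 were at 69.4%, 71.3% and 76.0% of vector. In a list of 22 genes of G2 and mitosis, 5 fell, the rest did not pass and none rose by edgeR's test, with a median of -0.22, and CCNB2, PLK1 and CCNB1 were at 70.2%, 72.5% and 74.6%. Of the latter list, 10 had an unadjusted p under 0.05, all lower. With the replicate number as a block, 0 genes passed in either list. The S phase calls dropped to 1 higher and 2 lower without vector replicate 1, to 1 higher and 3 lower without oeRNF112 replicate 1 and to 1 higher and 5 lower without oeRNF112 replicate 3, and the G2 and mitosis calls to 2 and 3 lower without the first pair of these. The medians of both lists stayed below 0 in all 15 alternatives, between -0.24 and -0.12 and between -0.23 and -0.12. By sample, the median of the 18 recombination genes, taken as log2 distance from each gene's mean over the vector samples, stood at 0.03, 0.11 and -0.09 in vector and at 0.07, 0.07 and 0.14 in oeRNF112, so that the groups overlapped. The median of the S phase list was 0.02, -0.07 and 0.05 in vector and -0.20, -0.18 and -0.25 in oeRNF112. The part of the cell cycle in the values of the repair genes was not tested, nor was the difference between the lists. In bulk RNA, fewer cells in a phase and less RNA per cell cannot be told apart.

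**Figure D4:**
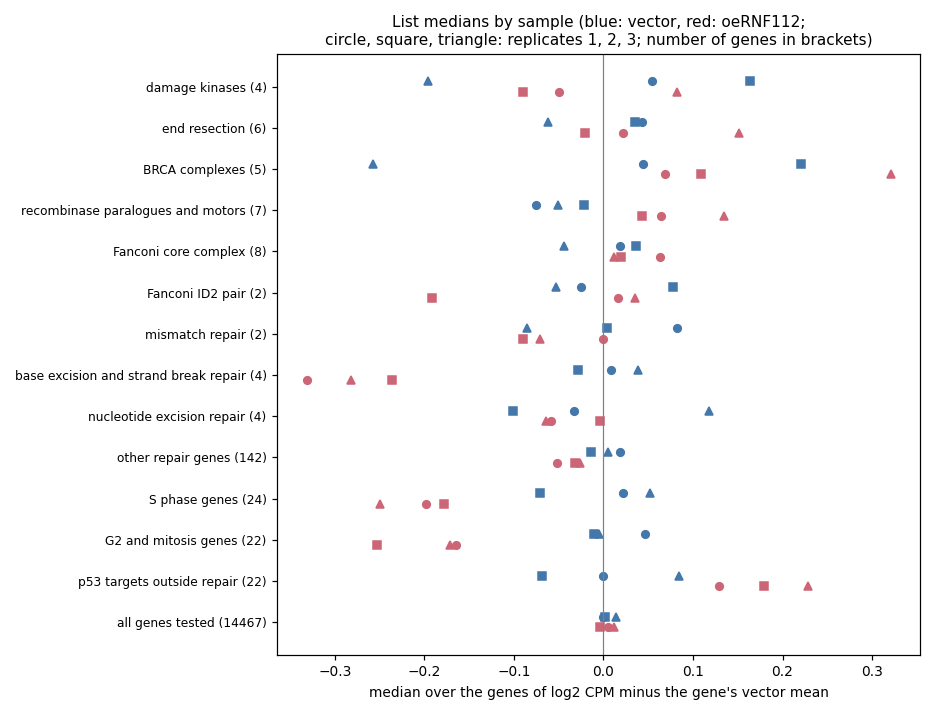
Median, over the genes of each list, of log2 CPM minus the gene's vector mean (horizontal axis) in each vector (blue) and oeRNF112 (red) sample, for the role groups of repair genes and for comparison lists, with the number of genes tested in brackets. The base excision group lies between -0.33 and -0.24 in oeRNF112 and between -0.03 and 0.04 in vector. The samples of the other role groups except the recombinase paralogues and motors overlap. The row of other repair genes lies between -0.05 and -0.03 in oeRNF112 and between -0.01 and 0.02 in vector, without overlap.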

How the data were processed

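RNA was measured in 3 vector and 3 oeRNF112 samples, grouped and numbered by their GEO titles. Separate cultures are not stated, so p-values measure the spread between these samples. The authors deposited raw counts of reads per gene and RPKM values. The submitters' processing notes name GRCh38, Trimmomatic 0.36, featureCounts and Subread 1.5.1, and the aligner and annotation release are not given in the sources used here. For 12738 of 12738 genes with at least 20 reads in every sample, the deposited RPKM equalled the count over the sample total and 1 length per gene within 0.1%, so both tables hold the same reads.

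Counts were filtered and TMM-normalized with edgeR 4.0.16 (R 4.3.3), fitted over all genes with its quasi-likelihood test, and called at a Benjamini-Hochberg adjusted p under 0.05. TMM factors were 0.957 to 0.988 in vector and 1.01 to 1.05 in oeRNF112. Standard errors are the log2 fold change over the square root of F. Deviations by sample are log2(CPM + 0.1). Replicates differed by far more than sampling noise (chi-square per degree of freedom of at least 17.8), so no sample is a copy. In simulated data, 200 genes were changed 1.5- or 2-fold, of which 196 passed edgeR's filter among 14293. Out of all 200, edgeR recovered 80% of 2-fold and 48% of 1.5-fold changes, with 9 false calls among 137. DESeq2 made 23 false calls among 163, and limma on log2(RPKM + 1) made 7 among 106. Genes were drawn independently, and a far smaller share was changed than passed in the real samples. These rates therefore need not hold for the real samples.

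The repair genes, role groups and lists were chosen with earlier results of these data known. All 42 members may be named, with values in every sample for those past the threshold and for the most abundant of each role group. From other repair lists at most 3 genes with the smallest p past the threshold are named, from the comparison lists the 3 smallest p, and from marker lists the 3 most abundant. BABAM2, SHLD1, POLD2, CD3E, TYROBP, PTPRC, CD79A, EXO1, BLM, UPK2, UPK3A, KRT13, KRT20 and some members given with sample values were chosen after their values were seen. The same holds for KRT19, FOXA1, PPARG, EPCAM, GATA3, UPK1A and TP63. FIRRM was not in the table. Alternatives were DESeq2 1.42.0, other size factors and filters, a replicate block, each sample left out, and limma 3.58.1 on log2(RPKM + 1) or log2(RPKM + 0.1), with a mean RPKM of at least 1 as a further filter.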

Additional observations from a re-analysis of the deposited data

How the results depend on the processing

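Of the calls among the repair genes, that of UNG held in all 15 alternatives, and those of PARP1 and FANCC in 3 and 4. The repair genes passing the test numbered 3 (none higher, 3 lower). With library totals they were 2 higher (BLM and EXO1) and 1 lower, and the same 3 genes passed in each of the 3 limma fits on RPKM. Without a filter on low counts and with the replicate block, 1 passed, and it was lower. Leaving out each sample gave 1 to 2 genes, 0 higher and 1 to 2 lower. The median over the repair genes moved from -0.0018 to 0.090 with library totals, 0.083 with limma on log2(RPKM + 1) with or without the mean RPKM filter, and 0.098 with a pseudocount of 0.1, while library totals moved the median of all genes from 0.0027 to 0.096.

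Over all genes, 2620 differed (1442 higher, 1178 lower). The replicate block gave 876 (618 higher, 258 lower), library totals 659 lower, and limma 669, 682 and 603 lower (pseudocounts of 1 and 0.1, and the mean RPKM filter). Leaving out each sample gave 1061 to 3387 genes, 702 to 1841 higher and 359 to 1546 lower. In the other repair lists the block gave 0 genes (0 higher, 0 lower), and 5 were higher with library totals, with a pseudocount of 0.1 and with the mean RPKM filter. Leaving out each sample gave 3 to 26 in all, 0 to 6 higher and 3 to 20 lower. A shared replicate number was not taken as a pairing, because the labels do not state one. Deviations from the group means correlated at -0.12, -0.36 and -0.30 for samples 1, 2 and 3. For samples with different numbers they correlated between -0.07 and 0.36. With 3 samples per group, such correlations cannot exclude a pairing.

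Signs turned only in repair genes that passed no test. With library totals, limma with pseudocounts of 1 and 0.1, and limma with the mean RPKM filter, in this order, RAD51C was at 0.043, 0.037, 0.042 and 0.037, RBBP8 at 0.0023, 0.0025, 0.0026 and 0.0025, and MRE11 at 0.0042, 0.00080, 0.00056 and 0.00080. CHEK2 was at 0.021, 0.021, 0.023 and 0.021, FANCF at 0.088, 0.076, 0.088 and 0.076, and FANCL at 0.061, 0.056, 0.059 and 0.056. MSH6 was at 0.048, 0.047, 0.048 and 0.047, PMS2 at 0.030, 0.026, 0.031 and 0.026, and PARP2 at 0.016, 0.015, 0.016 and 0.015. ERCC1 was at 0.031, 0.031, 0.033 and 0.031 and XPC at 0.045, 0.042, 0.045 and 0.042. ATM was at -0.0026 with DESeq2's size factors and -0.0056 with DESeq2, and FANCF at 0.0032 with at least 10 counts in every sample. With each sample left out, the log2 fold change went for PALB2 from -0.088 to 0.097, RAD54B from -0.044 to 0.068, XRCC2 from -0.027 to 0.27, ATM from -0.22 to 0.23, ATR from -0.062 to 0.25. It went for FANCD2 from -0.18 to 0.0076, FANCF from -0.037 to 0.022, FANCI from -0.0085 to 0.066, FANCL from -0.079 to 0.023, MSH6 from -0.084 to 0.012. The cause of these changes was not tested.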
